A study of Mus musculus with 12 samples.

Results

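The 39 Hox genes of the mouse genome, all genes named Hoxa, Hoxb, Hoxc or Hoxd with a number, were followed in 4 populations of fetal liver (FL) cells, among 38127 genes counted in each of 12 RNA-seq libraries. Hox genes encode homeodomain transcription factors that stand in 4 clusters, where genes are ordered along the chromosome as they are used along the body from head to tail. Genes of like position in different clusters are paralogs and share a number. Outside axial patterning, members of clusters A and B are known for their part in hematopoietic stem cells and in vessel cells, and cluster genes are switched by retinoic acid, silenced by Polycomb complexes and kept active by trithorax and MLL complexes.

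All cells came from C57BL/6 embryos and were sorted as Ter119-CD45-, with 3 libraries per population. At E14.5, the groups were P2 cells (CD54-CD31-Kit+CD24+), CD31+ cells (CD54+CD31+) and the CD54+CD31- cells that are called CD324+ cells here as in the study. The last group was CD54+CD31- cells at E18.5, which the labels also place in liver and which the study's text does not describe. The study describes its E14.5 replicates as independent litters, while nothing is said of the E18.5 libraries. The labels give no litter or animal for any library, so that p-values measure only the spread between these libraries, which may be technical for the E18.5 group.

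Total counts ran from 40714017 to 64368883 per library. P2 cells carried the erythroid progenitor markers (summed level of 10 genes 2837 to 3025 CPM, the count scaled by TMM to a common library size, against at most 667 elsewhere), CD31+ cells the 10 endothelial markers (10141 to 10695 CPM) and CD324+ cells the 10 hepatoblast markers (69791 to 80123 CPM). The libraries labelled E18.5 held hepatoblast markers at 5943 to 46473 CPM, lowest in replicate 1, and went against a liver label in another respect. All 10 lung epithelium markers were counted there, at 9218 to 20593 CPM in sum with replicate 1 highest, while the E14.5 libraries had at most 29.4 CPM. Stellate and mesenchymal markers (10 genes) had 3950 to 4385 CPM in these libraries and 122 to 240 CPM in CD324+ cells. The 6 mesothelium markers had 639 to 1052 CPM against at most 10.1 CPM, and the 8 lung mesenchyme markers 19.1 to 38.5 CPM against at most 8.14. Of these 8, Foxf1 alone was at 0 in every library. The list holds 1 gene whose whole body is overlapped by other genes, so this 0 is not read as absence (see the counting below). No E14.5 comparison below uses the E18.5 libraries. Of the remaining lists, the 10 hematopoietic stem and progenitor markers ranged from 109 CPM in CD324+ cells to 784 CPM at E18.5, the 8 macrophage markers from 14.3 CPM in P2 cells to 1605 CPM in CD31+ cells, and the 8 kidney markers stayed at or under 1.08 CPM. Such sums can rest on few genes. Of the 8 macrophage markers, 1 was called higher and 6 lower in CD31+ than in CD324+ cells. Of the 10 stem and progenitor markers, 2 were called higher and 5 lower at E18.5 than in CD31+ cells.

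How the genes were counted decided which members could be read. Of 1027 protein-coding genes whose whole body is overlapped by other annotated genes, 1008 (98.15%) were listed at 0 in all 12 libraries, against 2187 of 13886 (15.75%) with no other gene on their body. The share at 0 was 97.86% where the covering genes lay only on the opposite strand, and 98.83% where almost no exon bases were shared. The counts therefore behaved as reads on whole gene bodies, introns included, taken from either strand and dropped where genes overlap. In the Hox clusters 12 members are wholly covered in this way: Hoxa3, Hoxa4, Hoxa5, Hoxa6, Hoxb2, Hoxb5, Hoxb6, Hoxc6, Hoxc8, Hoxc9, Hoxd4 and Hoxd8. They were listed at 0 in every library, and nothing can be said of their RNA. Another 7 members had free bases and were also listed at 0 (Hoxa11, Hoxb13, Hoxc13, Hoxd3, Hoxd10, Hoxd12 and Hoxd13), although Hoxd3 is free over only 524 of 36516 bases. A count of 0 allows up to 3 counts, or 0.0388 to 0.0944 CPM depending on the library. A further 9 members had fewer than 10 counts in all libraries together, Hoxa10 and Hoxd11 the most with 8 each. The remaining 11 members carried the results, and those described here are Hoxa2, Hoxa7, Hoxa9, Hoxb3, Hoxb4, Hoxb7, Hoxb8, Hoxb9, Hoxc4 and Hoxc5.

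The 4 clusters lie on different chromosomes of GRCm38. Cluster A lies on the minus strand of chromosome 6, while cluster B spans chr11:96194316-96368256, cluster C chr15:102921103-103036852 and cluster D chr2:74668310-74765142, these 3 on the plus strand. Cluster A has 11 members, B 10, C 9 and D 9. For 22 of the 39 members RefSeq (GRCm38.p6) gave a start site and the 250 bases before it. They are shown for Hoxb4, the member with the most counts, for Hoxa2, Hoxb8 and Hoxa9, which were high in the same cells, and for Hoxc4, which was high in a different group. Capitals mark the letters CCAAT on either strand (CCAAT or ATTGG).
Hoxb4: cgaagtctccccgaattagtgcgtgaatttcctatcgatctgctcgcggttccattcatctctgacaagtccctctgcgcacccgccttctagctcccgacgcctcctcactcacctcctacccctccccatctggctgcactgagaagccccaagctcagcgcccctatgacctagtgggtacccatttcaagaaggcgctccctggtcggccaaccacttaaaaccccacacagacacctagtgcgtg
Hoxa2: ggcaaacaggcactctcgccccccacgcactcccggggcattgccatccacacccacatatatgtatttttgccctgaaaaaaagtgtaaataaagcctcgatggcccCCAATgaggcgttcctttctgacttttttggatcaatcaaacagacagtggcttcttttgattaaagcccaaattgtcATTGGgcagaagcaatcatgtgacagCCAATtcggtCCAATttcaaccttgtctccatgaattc
Hoxb8: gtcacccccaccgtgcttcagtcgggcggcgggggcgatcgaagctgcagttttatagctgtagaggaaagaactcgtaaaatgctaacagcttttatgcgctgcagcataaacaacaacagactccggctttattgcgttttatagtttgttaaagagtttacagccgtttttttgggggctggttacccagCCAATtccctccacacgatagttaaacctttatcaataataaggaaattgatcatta
Hoxa9: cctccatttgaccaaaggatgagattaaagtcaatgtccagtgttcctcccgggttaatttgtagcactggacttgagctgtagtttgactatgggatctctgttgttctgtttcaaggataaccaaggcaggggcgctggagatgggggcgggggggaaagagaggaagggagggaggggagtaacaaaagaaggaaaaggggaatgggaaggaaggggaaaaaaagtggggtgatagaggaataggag
Hoxc4: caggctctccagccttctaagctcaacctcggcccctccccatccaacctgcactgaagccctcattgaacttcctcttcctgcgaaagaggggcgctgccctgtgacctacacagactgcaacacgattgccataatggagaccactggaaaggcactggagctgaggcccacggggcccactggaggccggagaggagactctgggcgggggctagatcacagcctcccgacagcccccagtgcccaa
The windows are chr11:96318017-96318266 on the plus strand for Hoxb4, chr6:52164832-52165081 on the minus strand for Hoxa2, chr11:96281655-96281904 on the plus strand for Hoxb8, chr6:52227371-52227620 on the minus strand for Hoxa9 and chr15:103034145-103034394 on the plus strand for Hoxc4. The windows of Hoxa9 and Hoxc4 lie inside the GENCODE gene bodies, downstream of the first annotated start. Hoxa2 held CCAAT 4 times and Hoxb8 once, while the windows of Hoxb4, Hoxa9 and Hoxc4 held no match. Among 32807 windows of the same length before RefSeq starts, 33.8% held CCAAT. The letters TGATTNAT, a pairing of Pbx and Hox half-sites searched on both strands, were found in the Hoxa2 window on the minus strand (no overlap with a CCAAT match) and in 2.83% of all windows. CG dinucleotides numbered 14 in the window of Hoxb4, 12 in Hoxb8, 8 in Hoxc4, 6 in Hoxa2 and 3 in Hoxa9, against a median of 6 over all windows.

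Hox RNA was concentrated in CD31+ cells at E14.5. The Hox genes together had 33.5, 30.8 and 30.8 CPM in CD31+ replicates 1 to 3, from 1727 to 1946 counts per library. In P2 cells the sum was 0.574, 1.73 and 0.751 CPM (25, 83 and 39 counts), and in CD324+ cells 0.736, 0.661 and 0.617 CPM (26, 21 and 25 counts). The E18.5 CD54+CD31- libraries stood between, with 7.62, 6.74 and 5.29 CPM. No P2 or CD324+ library came near the lowest CD31+ or E18.5 library. In these bulk libraries, few cells with much Hox RNA and many cells with little cannot be told apart.

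**Figure D1:**
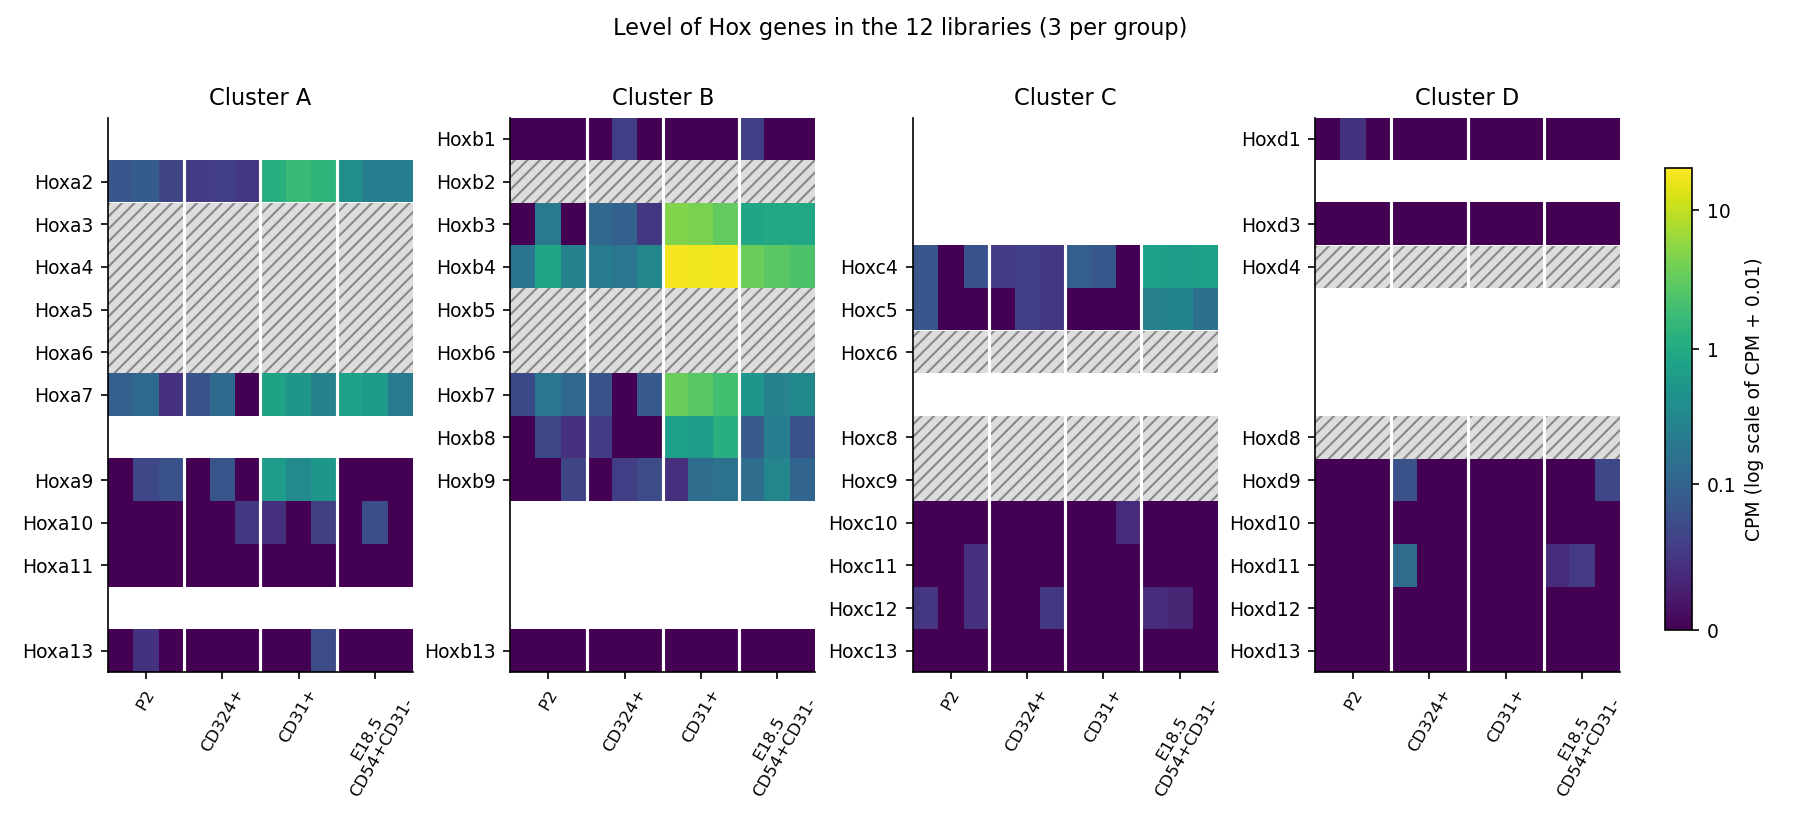
Level of the Hox genes in the 12 libraries, as colour on a log scale of CPM, with clusters as panels, paralog number from top to bottom and 3 libraries per group side by side. Hatched rows are the 12 genes wholly covered by other genes, which cannot be read, blank rows are positions with no gene shown, and dark rows are genes at or near 0 (Hoxd3 is free over only 524 bases). Colour in CD31+ cells is concentrated in the readable genes from Hoxa2 to Hoxa9 and from Hoxb3 to Hoxb8. E18.5 cells show these genes except Hoxa9, which is at 0 there, and at lower level except Hoxa7, which is alike. Hoxc4 and Hoxc5 are added at E18.5.

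Cluster B held most of the Hox counts, and the clusters differed between the groups. In CD31+ cells cluster B had 25.4 ± 1.52 CPM (SD, n = 3) and 80.2% of the Hox counts, cluster A 6.23 ± 0.136 CPM and 19.7%, and cluster C 0.0590 ± 0.0385 CPM and 0.184%. Cluster D was listed at 0 in the 3 CD31+ libraries. In E18.5 cells cluster B had 4.54 ± 0.724 CPM and 69.5%, cluster A 1.03 ± 0.405 CPM and 15.4%, and cluster C 0.946 ± 0.0599 CPM and 14.7%. Cluster C thus had 10 counts over the 3 CD31+ libraries and 202 over the 3 E18.5 libraries. By share it held 13.6% ± 14.0 in P2 cells (12 counts) and 8.46% ± 4.18 in CD324+ cells (6 counts). Cluster B held 58.7% ± 18.6 and 62.0% ± 12.4 there, and these shares rest on few counts. Cluster D gave 6 counts at E18.5, 1 in P2 cells and 7 in CD324+ cells, all 7 of them in replicate 1. When counts were divided by the free exon length of each gene, the share of cluster C at E18.5 was 8.19% in place of 14.7%, and that of cluster B 76.1%. These shares rest on the readable members alone, and 4 of 11 members in A, 3 of 10 in B, 3 of 9 in C and 2 of 9 in D are not among them.

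By position, the anterior members (paralogs 1 to 4) held 84.9% ± 1.71 (SD, n = 3) of the Hox counts of CD31+ cells and 77.2% ± 5.22 of those of E18.5 cells. The central members (5 to 8) held 12.98% ± 1.95 and 19.1% ± 4.11, and the posterior members (9 to 13) 2.07% ± 0.506 and 3.69% ± 1.98. The 2 groups overlap for each of the 3 classes by library except the anterior class, where the highest E18.5 library (82.7%) lay just under the lowest CD31+ library (83.0%). The CPM of the anterior class was 26.9 ± 0.809 in CD31+ cells, 5.02 ± 0.733 at E18.5, 0.706 ± 0.527 in P2 cells and 0.408 ± 0.0117 in CD324+ cells.

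**Figure D2:**
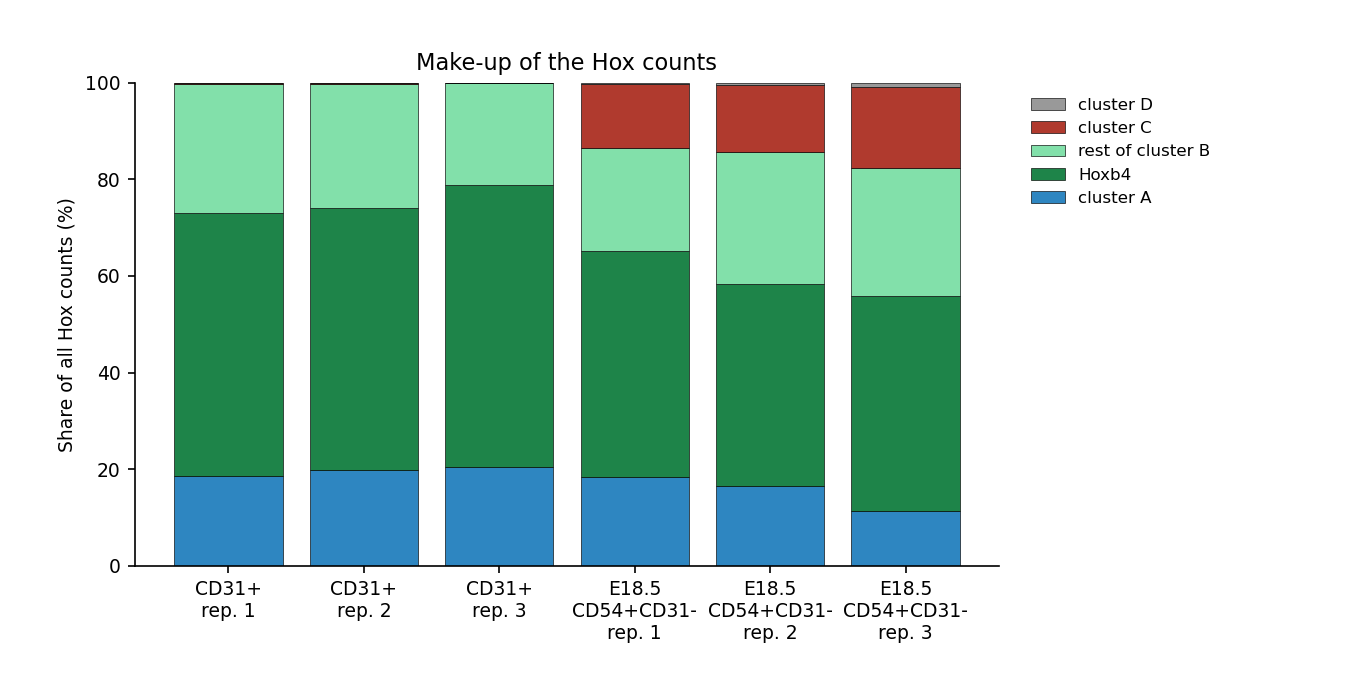
Share of all Hox counts (percent, y axis) held by Hoxb4 and by the rest of each cluster in the 3 CD31+ and the 3 E18.5 CD54+CD31- libraries, as stacked bars, with blue for cluster A, dark green for Hoxb4, light green for the rest of cluster B, red for cluster C and grey for cluster D. Hoxb4 held 54.4 to 58.3% in CD31+ cells and 41.8 to 47.0% at E18.5, and the red part is visible only at E18.5.

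Hoxb4, a cluster B gene best known for expanding hematopoietic stem cells when it is overexpressed, was the most abundant member by counts. Its level was 18.2, 16.7 and 18.0 CPM in CD31+ replicates 1 to 3 and 3.58, 2.82 and 2.35 CPM in the E18.5 libraries. P2 cells had 0.184, 0.874 and 0.270 CPM, and CD324+ cells 0.226, 0.189 and 0.321 CPM. The CD31+ libraries were all above the E18.5 libraries, which were all above the rest, and P2 and CD324+ libraries overlapped. Hoxb3, its anterior neighbour, had 4.67, 4.35 and 3.22 CPM in CD31+ cells and 0.851, 0.983 and 0.914 CPM at E18.5. Replicate 2 alone had Hoxb3 counts among the P2 libraries (0, 11 and 0 counts), and the CD324+ libraries had 4, 3 and 1. The 2 neighbours thus ranked the groups alike, with CD31+ first and E18.5 next.

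The order of the members depends on how length is taken. Per kilobase of exon free of other genes, Hoxb3 (8.29 ± 1.55 CPM per kb, SD, n = 3) and Hoxb4 (6.88 ± 0.315) led in CD31+ cells, and their ranges by library overlapped (6.54 to 9.49 and 6.52 to 7.11). Hoxb7 (1.78 ± 0.504) and Hoxa2 (1.5 ± 0.243) were lower and overlapped each other. Hoxb3 has only 492 free exon bases, however, and reads in its introns also count. Per kilobase of free gene body it fell to 0.293 ± 0.0548, behind Hoxb4 (5.23 ± 0.240), Hoxa2 (1.5) and Hoxb7 (0.777 ± 0.220). At E18.5 Hoxb3 led per kb of free exon (1.86 ± 0.134 CPM, 1.73 to 2.00 by library), above Hoxb4 (1.14 ± 0.240, 0.917 to 1.39). Hoxa2 had 0.333 ± 0.110, Hoxc4 0.272 ± 0.0218 and Hoxb7 0.247 ± 0.0829, and these 3 overlapped. Per kb of free gene body Hoxb3 fell there to 0.0657 ± 0.00474, against 0.865 ± 0.183 for Hoxb4. Hoxb4 was ahead of Hoxa2 and Hoxb7 on both scales in each of these 2 groups.

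Hoxa2, an anterior cluster A gene which patterns the hindbrain and the second pharyngeal arch, had 1.20, 1.66 and 1.38 CPM in CD31+ cells and 0.433, 0.259 and 0.249 CPM at E18.5. It had 3, 4 and 2 counts in the P2 libraries and 1 in each CD324+ library. CD31+ and E18.5 cells did not overlap. Hoxa2 is free of other genes over 39.01% of its body, so its level is that of the readable part.

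The central members Hoxb7 and Hoxb8, trunk genes of cluster B, were also highest in CD31+ cells. Hoxb7 had 3.52, 2.76 and 1.96 CPM there and 0.526, 0.285 and 0.332 CPM at E18.5. Hoxb8, known for blocking myeloid differentiation when it is forced on, had 0.718, 0.641 and 1.17 CPM in CD31+ cells and 0.0774, 0.259 and 0.0554 CPM at E18.5, where replicate 2 gave 20 of the 29 counts. Hoxa7 departed from this order, with 0.790, 0.552 and 0.285 CPM in CD31+ cells and 0.758, 0.621 and 0.222 CPM at E18.5. Its libraries overlapped almost completely between the 2 groups, with wide spread in both (0.543 ± 0.253 and 0.534 ± 0.279 CPM).

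Among posterior members, Hoxa9, which sustains hematopoietic stem cells and is overexpressed in leukemias with MLL fusions, had 35, 20 and 35 counts in CD31+ cells (0.513 ± 0.141 CPM) and 0 in each of the 3 E18.5 libraries. Hoxb9 had 1, 8 and 10 counts in CD31+ cells and 9, 24 and 8 at E18.5. Hoxa9 and Hoxb9, paralogs of position 9, thus differed in that Hoxa9 was not seen at E18.5 while Hoxb9 had its highest library there.

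Hoxc4 and Hoxc5, the counted members of cluster C, were highest at E18.5. Hoxc4 had 0.728, 0.634 and 0.734 CPM at E18.5 (47, 49 and 53 counts), but 5, 4 and 0 counts in CD31+ cells, 3, 0 and 3 in P2 cells and 1 in each CD324+ library. Hoxc5 had 17, 23 and 11 counts at E18.5 and 0 in each CD31+ library. Hoxc4 and Hoxb4, paralogs of position 4, therefore ranked CD31+ and E18.5 cells in opposite order. Hoxc5 is free over 39.5% of its body.

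**Figure D3:**
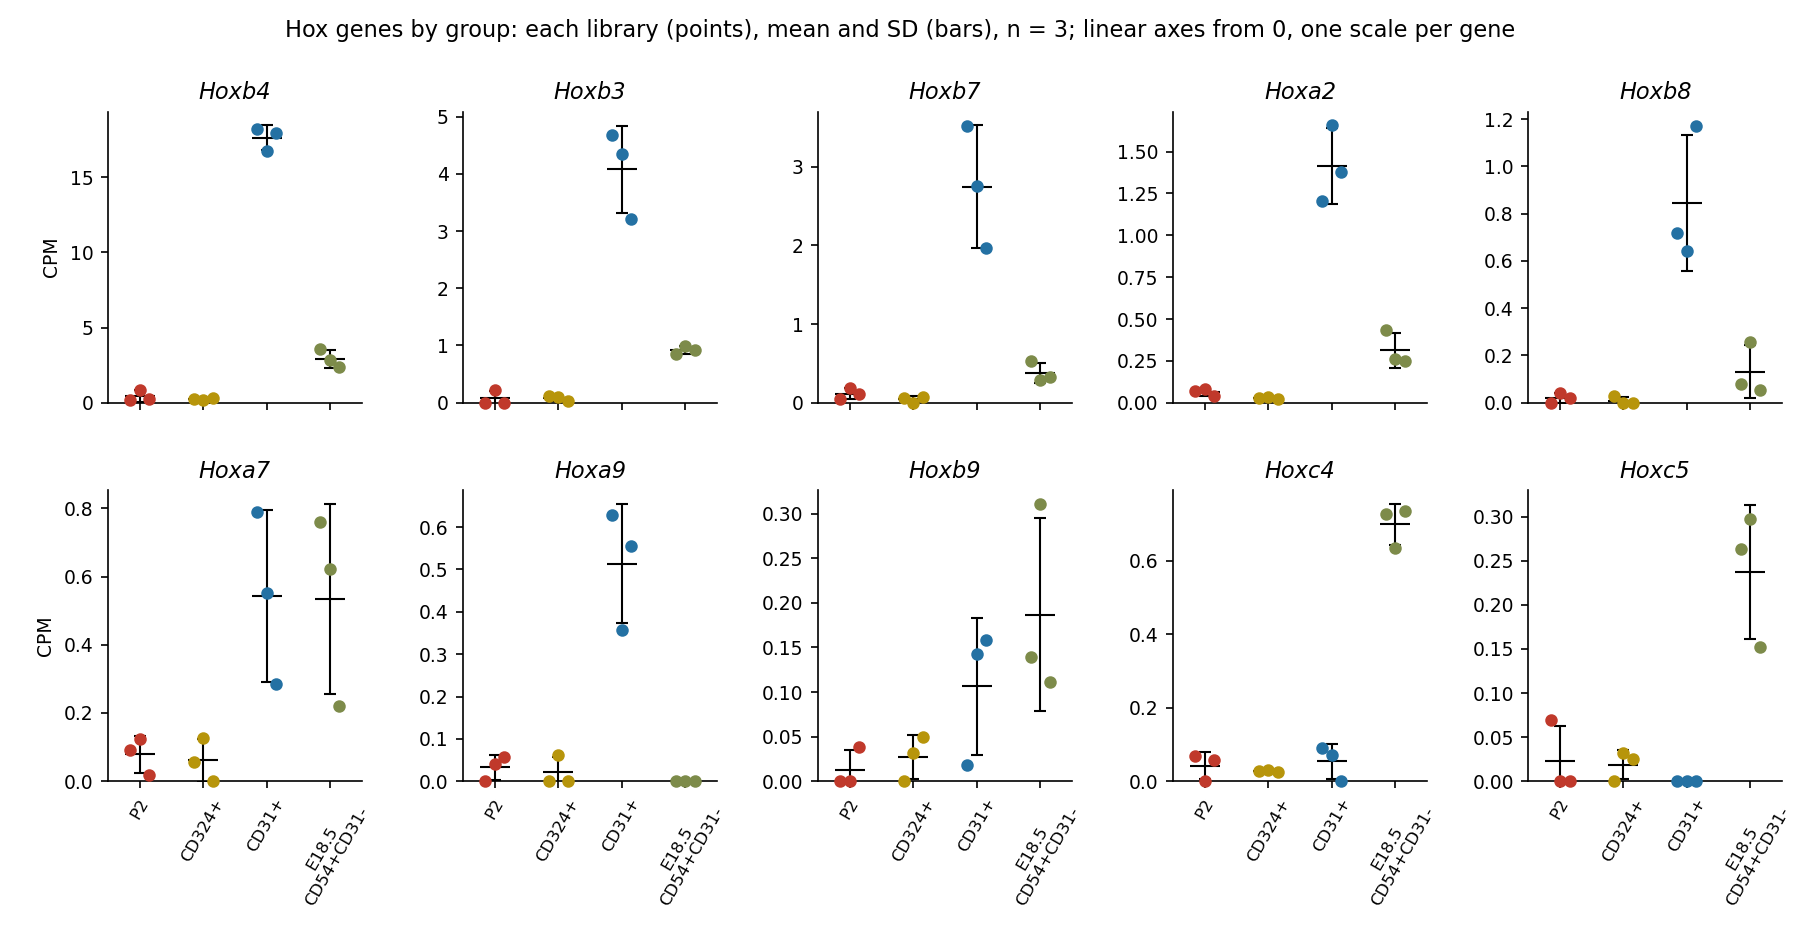
Level in CPM (y axis, linear, each gene with its own scale from 0) of 10 Hox genes (Hoxb9 among them) in P2, CD324+, CD31+ and E18.5 CD54+CD31- cells, with points for the 3 libraries and black bars for mean and SD, cut at 0. CD31+ cells lie highest for Hoxb4, Hoxb3, Hoxb7, Hoxa2, Hoxb8 and Hoxa9, E18.5 cells for Hoxc4 and Hoxc5, and both overlap for Hoxa7 and Hoxb9.

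CD31+ cells were compared with CD324+ cells as the endothelial and the epithelial population of E14.5 FL. The Hox genes tested rose in CD31+ cells, Hoxb4 by a log2 fold change of 6.12 (SE 0.47, adjusted p = 1.19e-06, edgeR's quasi-likelihood test) and Hoxb7 by 5.82 (SE 0.65, adjusted p = 2.05e-05). Hoxb3 rose by 5.71 (SE 0.87, adjusted p = 0.000200) and Hoxa2 by 5.53 (SE 0.51, adjusted p = 5.03e-06). Hoxa2 had only 3 counts in CD324+ cells, and its ratio with exact 95% counting interval was 50.7 (17.1 to 247). Of the 39 members 8 passed the low count filter and all 8 were called higher, where 65.6% of the 15461 genes tested were called, 31.7% higher and 34% lower. A member could pass through CD31+ cells alone, so that this count had to favour them and does not weigh as evidence. Hoxb8, Hoxa9 and Hoxa7 were also among them, with 1, 2 and 6 counts in CD324+ cells. Hoxa9 had a ratio of 27.7 (7.45 to 232), and Hoxa7 rose by 3.17 (SE 0.88, adjusted p = 0.00906), between 2.54 and 4.13 with a CD324+ library left out. The 31 members not tested include 10 with counts in these 2 groups, among them Hoxb9 with 19 counts in CD31+ and 3 in CD324+ cells.

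P2 cells, the Kit+CD24+ population, were set against CD31+ cells for the same genes, and the CD31+ libraries serve both comparisons. Hoxb4 was lower in P2 cells by a log2 fold change of -5.31 (SE 0.43, adjusted p = 1.45e-06, edgeR) and Hoxb3 by -5.70 (SE 0.83, adjusted p = 0.000117). Hoxb7 had -4.53 (SE 0.55, adjusted p = 3.10e-05) and Hoxa2 -4.44 (SE 0.44, adjusted p = 6.52e-06). All 8 members tested were called lower, beside 73.7% of the 15461 genes called, 34.3% higher and 39.4% lower, with the same limit on the count. Hoxb8 had 3 counts in P2 cells against 150 in CD31+ cells, a ratio of 41.0 (13.8 to 201), while Hoxa9 (-3.81) and Hoxa7 (-2.77) had the least negative values. P2 replicate 2 carried most of the Hox counts of its group, 42 of 64 for Hoxb4 and all 11 for Hoxb3. Without it Hoxb4 stood at -6.25, while Hoxb3 had no count left in P2 cells.

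P2 and CD324+ cells were both low, and no member passed edgeR's test between them. Of 8 members tested, 0 were called in either direction, where 70% of the 15461 genes were called, 33.8% higher and 36.1% lower. At an unadjusted p below 0.05 there was 1, beside 11192 of the 15461 genes. DESeq2 called 0 of 10, beside 11200 of 18750 genes. Hoxb4 had a log2 fold change of 0.81 (SE 0.54, adjusted p = 0.208), and Hoxb3 0.01 (SE 1.12, adjusted p = 0.994). At 21 to 83 Hox counts per library these values do not show that the 2 populations are alike. Hoxb3 was called lower in P2 cells without P2 replicate 2 (-4.88, adjusted p = 0.0105), a value fitted against 0 counts and so no bound, so that 1 library decides this call.

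Among the P2 libraries, the Hox sum and the endothelial markers were both highest in replicate 2. The sum of the 10 endothelial markers was 0.613, 4.02 and 1.07% of the CD31+ mean in the P2 libraries, and the Hox sum 1.81, 5.45 and 2.37% of its CD31+ mean. In CD324+ cells the endothelial sum was 0.40 to 0.690% and the Hox sum 1.95 to 2.32%. At E18.5 the endothelial sum was 1.91 to 2.44%, but the Hox sum was 16.7 to 24.0%, and no endothelial marker was at 0 in any group. The Hox sum was thus a larger part of its CD31+ level than the endothelial sum in each of the 9 other libraries. The summed macrophage markers were also highest in P2 replicate 2 within its group (62.7 CPM, against 14.3 CPM in the lowest). Csf1r, which is on that list, did not follow, with 1.33, 1.29 and 1.21 CPM in P2 replicates 1 to 3. The part of other cells in the Hox level of these libraries was not tested.

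**Figure D4:**
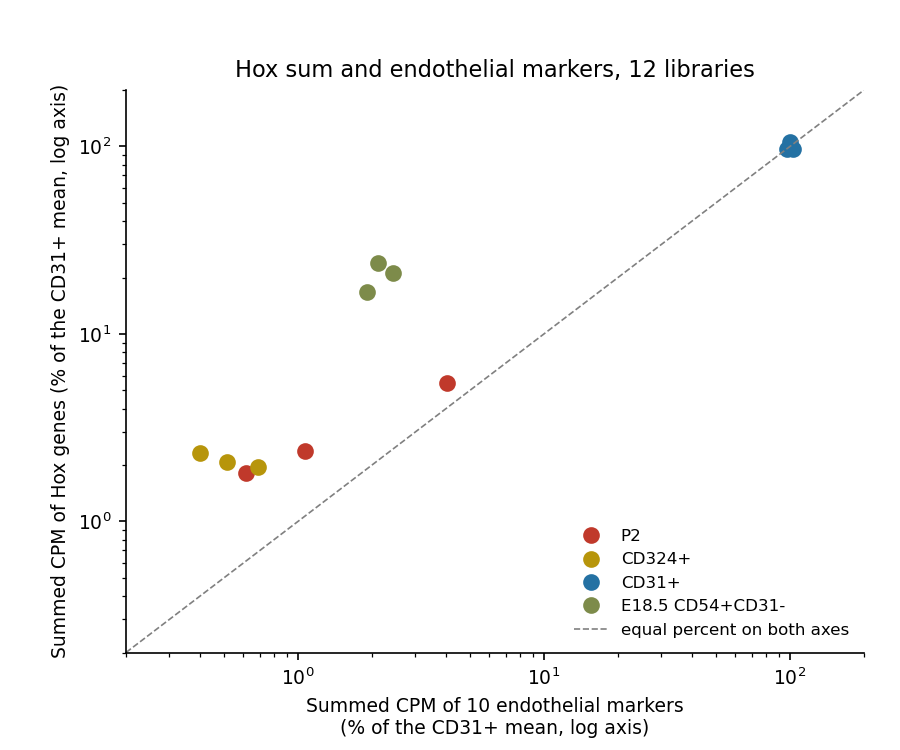
Summed CPM of the Hox genes against summed CPM of 10 endothelial markers, each as percent of its mean in CD31+ cells, on log axes, 1 point per library. The dashed line marks equal percent on both axes. The 9 libraries of P2, CD324+ and E18.5 cells lie above it, P2 replicate 2 (4.02% and 5.45%) closest and the E18.5 libraries (1.91 to 2.44% and 16.7 to 24.0%) farthest.

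CD54+CD31- cells at E18.5 were compared with those at E14.5 (CD324+) in a fit of these 6 libraries. Hoxc4 rose most, by a log2 fold change of 4.71 (SE 0.43, adjusted p = 0.000115, edgeR), with 149 counts at E18.5 against 3, a ratio of 25.0 (8.38 to 122). Hoxb3 rose by 3.74 (SE 0.50, adjusted p = 0.000611), Hoxb4 by 3.73 (SE 0.33, adjusted p = 0.000107) and Hoxa2 by 3.56 (SE 0.56, adjusted p = 0.00133). Hoxa7 (3.35, adjusted p = 0.0145) and Hoxb7 (3.17, SE 0.72, adjusted p = 0.00669) were the other members called, making 6 of 6 tested beside 69.4% of 15863 genes called, 35.9% higher and 33.5% lower, and again E18.5 cells alone could bring a member past the filter. Hoxa7 missed the threshold without CD324+ replicate 1 (3.33, adjusted p = 0.0503) and moved to 4.37 without CD324+ replicate 2 and 2.68 without replicate 3. DESeq2, which tests more low genes, called 10 of 11, beside 11590 of 19108 genes (6289 higher and 5301 lower). Hoxb8, Hoxb9 and Hoxc5 were among the members added. Hoxc5 had 51 counts against 2, a ratio of 12.8 (3.37 to 109). Lung epithelium, mesenchymal and mesothelium markers all rose between the same libraries (10 of 10, 9 of 9 tested and 6 of 6 called higher), and stage and cell make-up cannot be told apart here.

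Set directly against CD31+ cells, in a fit of all 12 libraries that was added after the data were seen, E18.5 cells had less of most members tested and more of Hoxc4. Hoxb7 differed by a log2 fold change of -2.85 (SE 0.50, adjusted p = 0.000338, edgeR) and Hoxb4 by -2.60 (SE 0.39, adjusted p = 0.000106). Hoxa2 (-2.17), Hoxb3 (-2.15) and Hoxb8 (-2.66) were lower as well, and Hoxa9 was at least 36.7-fold lower, taking 3 counts over the group as the limit for its 0 counts. Hoxc4 was higher by 3.68 (SE 0.78, adjusted p = 0.00132), and Hoxc5, which edgeR's filter left out, at least 13.9-fold. Of 9 members tested, 7 were lower and 1 higher, where 38.8% and 29.7% of 16643 genes were (68.5% called in all). This count too depends on which members a high group brought past the filter, as with Hoxa9 in CD31+ cells. Hoxa7 was not called (-0.02, SE 0.69, adjusted p = 0.979). Without E18.5 replicate 2, Hoxb8 was at -3.62, and without CD31+ replicate 3, which had no Hoxc4 count, Hoxc4 was at 3.08. The median of all genes tested was -0.18 and moved by 0.32 with the authors' factors.

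Of the other genes inside the cluster spans, Hotairm1, Hoxb3os and Gm28308 were also highest in CD31+ cells. Of 14 such genes 5 are wholly covered by others and 4 were tested. Hotairm1, a noncoding RNA of cluster A known from myeloid cells, had 336, 381 and 449 counts in CD31+ cells, 74, 101 and 77 at E18.5, 2, 18 and 7 in P2 cells and 10, 5 and 4 in CD324+ cells. It rose in CD31+ over CD324+ cells by a log2 fold change of 5.20 (SE 0.54, adjusted p = 1.14e-05, edgeR), and Hoxb3os, opposite to Hoxb3, by 6.22 (SE 0.77, adjusted p = 4.29e-05). Hoxb3os had only 3 counts in CD324+ cells, a ratio of 81.2 (27.6 to 396), and stood at 7.11 without CD324+ replicate 1. Gm28308, read only over 4230 intron bases of cluster A, rose by 6.99 (SE 0.60, adjusted p = 2.59e-06) with 2 counts in CD324+ cells, a ratio of 148 (40.7 to 1223), and stood at 6.38 without CD324+ replicate 3. Hoxb3os overlaps Hoxb3, and since strand did not separate the counts, reads of the readable parts may still come from either gene of the pair. Gm11539, a processed pseudogene in cluster B, was counted in all groups (37 to 140 counts per library) and did not pass the test between CD31+ and CD324+ cells (-0.64, adjusted p = 0.0668). It was higher in P2 than in CD31+ cells (0.88, adjusted p = 0.0142) and lower at E18.5 than in CD324+ cells (-1.19, adjusted p = 0.0157), calls that were lost without P2 replicate 3 and without CD324+ replicate 3 or E18.5 replicate 2.

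RNA of the TALE homeodomain proteins, the Meis, Pbx and Pknox factors that bind DNA together with Hox proteins, was counted in all groups. Some levels were low, with Meis3 at 0.333 ± 0.236 CPM and Pknox2 at 0.381 ± 0.150 CPM in P2 cells. In CD31+ over CD324+ cells 5 of 9 rose and 1 fell (Pbx2, a call lost with the authors' factors, by DESeq2 and in the fit of all 12 libraries), led by Meis2 with 298 ± 54.9 against 26.1 ± 4.22 CPM (SD, n = 3, log2 fold change 3.51, adjusted p = 1.44e-05, edgeR). Meis1 had 95.7 ± 13.2 against 31.4 ± 5.03 CPM (1.60). P2 cells had less Meis2 (6.65 ± 4.35 CPM) and Meis1 (8.33 ± 0.948) than either population, and more Pbx4 (11.46 ± 1.78 against 1.38 ± 0.332 CPM in CD31+ cells, 3.04). Over the list, 1 gene was higher and 5 lower in P2 than in CD31+ cells, and 3 were higher and 5 lower than in CD324+ cells. Of all genes tested, 34.3% were higher and 39.4% lower in P2 than in CD31+ cells, and 33.8% and 36.1% than in CD324+ cells. The shares were 31.7% and 34% in CD31+ over CD324+ cells, and 35.9% and 33.5% at E18.5 over CD324+ cells. At E18.5, 5 of 9 rose against CD324+ cells, with Pbx4 at 9.12 ± 0.568 CPM (3.38). The other 4 did not pass the test, among them Meis2 at 28.7 ± 3.71 CPM (0.32, adjusted p = 0.117) and Pbx2 (-0.29, adjusted p = 0.0572). Medians of the list were 0.71 in CD31+ and 1.15 in E18.5 against CD324+ cells, beside -0.03 and 0.03 over all genes tested.

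Retinoic acid genes, 18 on the list, moved in both directions. Between CD31+ and CD324+ cells 6 of 15 tested rose and 4 fell. Cyp26b1 and Cyp26a1, which degrade retinoic acid, rose by log2 fold changes of 5.30 and 4.73 (4.50 ± 0.137 against 0.111 ± 0.0720 CPM and 0.558 ± 0.193 against 0.0177 ± 0.0154 CPM, adjusted p = 2.00e-05 and 0.000632, edgeR). Aldh1a1, which makes retinoic acid, was lower (-3.50, and -4.15 without CD31+ replicate 1). P2 cells had 3 genes higher and 11 lower than CD31+ cells, led by Cyp26b1 (-6.10, and -5.48 without P2 replicate 3) and Rarg (-5.20, and -6.17 without P2 replicate 2), and 2 higher and 8 lower than CD324+ cells, with Dhrs3 at -3.96. At E18.5, 8 of 12 rose (7 in each fit with a library left out) and 1 fell against CD324+ cells. Aldh1a2, the main retinoic acid synthase of the embryo, stood at 34.2 ± 5.55 against 0.728 ± 0.183 CPM (5.74). The medians were 0.48, -2.42, -1.40 and 0.68 in the order given, beside -0.03, -0.13, -0.01 and 0.03 over all genes tested. Of all genes, 31.7% were called higher and 34% lower in CD31+ over CD324+ cells, 34.3% and 39.4% in P2 over CD31+, 33.8% and 36.1% in P2 over CD324+, and 35.9% and 33.5% at E18.5 over CD324+.

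The chromatin genes moved in both directions in each comparison, and the same shares of all genes stand beside their counts. Of 23 Polycomb genes 22 were tested in each comparison, and 9 rose and 5 fell in CD31+ over CD324+ cells, 10 and 9 in P2 over CD31+, 10 and 6 in P2 over CD324+, and 7 and 6 at E18.5 over CD324+. With a library left out, CD31+ over CD324+ gave 6 to 8 higher and 4 to 7 lower. P2 over CD31+ then gave 10 higher and 7 to 8 lower. Cbx7, a reader subunit of the repressive complex, had 2.61 ± 0.147 CPM in CD31+ and 1.08 ± 0.319 CPM in CD324+ cells (log2 fold change 1.28, adjusted p = 0.000728, edgeR). It had 7.15 ± 0.225 CPM in P2 cells and 7.16 ± 1.84 CPM at E18.5 (2.72 and 2.93 over CD324+ cells). Ezh2, the histone methyltransferase of the companion complex, had 268 ± 4.42 CPM in P2 and 104 ± 8.89 CPM in CD324+ cells (1.35). Of the 17 trithorax and MLL-linked genes 6 rose and 4 fell in CD31+ over CD324+ cells (7 without CD31+ replicate 2 or without P2 replicate 1), with Kmt2a, which encodes MLL1, at 192 ± 4.36 against 106 ± 9.86 CPM (0.85, adjusted p = 2.47e-05). P2 cells had 14 higher and 3 lower than CD324+ cells, and 10 higher and 4 lower than CD31+ cells, a balance that turned to 6 higher and 7 lower with the authors' factors. At E18.5, 8 were higher and 6 lower than in CD324+ cells. Medians in CD31+ over CD324+, P2 over CD31+, P2 over CD324+ and E18.5 over CD324+ cells were 0.18, 0.01, 0.34 and -0.12 for the Polycomb list and 0.07, 0.34, 0.62 and 0.33 for the trithorax list. The Cdx, ParaHox and other Hox-linked homeobox genes, 9 on the list, were too low to be tested in any of these comparisons.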

How the data were processed

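Cells were sorted from FL, ribosomal RNA was removed enzymatically, and libraries were made with a stranded total RNA kit. The submitters' processing notes name cutadapt 1.11, STAR 2.5.0a, featureCounts 1.4.6-p3, R 3.5.1, DESeq2 and the GRCm38 build, without their settings. Per the study's methods, single-end reads were aligned with STAR, counted with featureCounts and normalized with DESeq2. The authors deposited raw counts beside a score, in which each library's counts were scaled by a constant and rounded to whole numbers. The strand setting and the handling of shared reads are not given in the sources used here. They were inferred from the counts and the GENCODE annotation, in which 37932 of 38127 identifiers were found.

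Counts were tested in R 4.3.3 with edgeR 4.0.16 (TMM, filterByExpr, quasi-likelihood test, Benjamini-Hochberg over all genes tested, adjusted p below 0.05 called), modelling the population alone. The 9 E14.5 libraries and the 6 CD54+CD31- libraries were fitted separately, and a fit of all 12 was added for E18.5 against CD31+ cells. Levels are CPM with TMM over 12 libraries, mean ± SD. The score served only to read the authors' factors. DESeq2 1.42.0, DESeq2's size factors, 2 other low count filters, a replicate block, the authors' factors, genes over 1% of a library left out, 1 fit of all libraries and leaving out each library were the alternatives. The test was tried on simulated counts first. Intervals of ratios and limits for 0 counts (3 counts over the group, or per library where a library's level is given) cover counting error only, and the number of libraries limits the precision.

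The members and gene lists were chosen with earlier results of these data known. Values in every library are given for the members called with the largest fold change (up to 6 in each direction, at least 1 CPM in a group), for the 5 highest per kilobase in each group and for those whose call changed with the processing. Up to 4 genes per list are named by fold change. A few genes that the rule names are not reported here, although counts and sums include them. Hoxa9, Hoxb8, Hoxb9, Hoxc5, Pbx2, Meis2 at E18.5 and the genes between cluster members were added after their values were seen. No pair of replicates looked like copies of the same library, the lowest chi-square of a pair being 42.0 for each degree of freedom.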

Additional observations from a re-analysis of the deposited data

How the results depend on the processing

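No member could be tested with at least 10 counts in every library, since P2 and CD324+ cells had fewer. Of the log2 fold changes of members and of the genes of the lists recomputed under the alternatives, 2154 kept direction and call, 20 turned direction, 21 lost the call and 1 gained it. Those that turned had no call as reported, and 1 of them, Hoxb3 in P2 against CD324+ cells, was called without P2 replicate 2. For P2 against CD324+ cells, Hoxb3 (0.01) was -0.017 by DESeq2, -0.12 with the replicate block, -0.23 with the authors' factors and between -4.88 and 0.62 with a library left out, Hoxa7 (0.40) between -0.23 and 1.42, and Hoxb4 (0.81) between -0.13 and 1.15. For E18.5 against CD31+ cells, Hoxa7 (-0.02) was 0.13 with DESeq2's size factors and by DESeq2, 0.21 without a low count filter, 0.30 with the authors' factors and between -0.35 and 0.35 with a library left out. The number of members called ranged from 0 to 1 in each direction for P2 against CD324+ cells with a library left out. E18.5 against CD324+ cells gave 10 higher by DESeq2, and E18.5 against CD31+ cells 2 higher by DESeq2 and without a low count filter and 1 to 2 with a library left out, the added gene being Hoxc5. The causes were not tested. Called folds that moved over 1.5 times included those of members with few counts in the low group. For CD31+ against CD324+ cells, Hoxa9 went from 4.58 to 7.63 and Hoxb8 from 6.14 to 8.36 without the CD324+ library that held their counts (replicates 2 and 1). These were fitted against 0 counts and so give no bound. For P2 against CD31+ cells Hoxb3 went from -5.70 to -10.59 (again against 0 counts) and Hoxb8 from -5.19 to -6.03 without P2 replicate 2, and Hoxa9 from -3.81 to -4.41 without P2 replicate 3. Hoxb4, with 8, 42 and 14 counts in the P2 libraries, went from -5.31 to -6.25 without P2 replicate 2. The authors' factors shifted the median of all genes by -0.26, -0.37, 0.11, 0.23 and 0.32 in the order P2 against CD324+, P2 against CD31+, CD31+ against CD324+, E18.5 against CD324+ and E18.5 against CD31+. With them 38.2, 33.9 and 56.8% of the calls were higher, in place of 48.3, 46.6 and 43.3%, for P2 against CD324+, P2 against CD31+ and E18.5 against CD31+. Same-numbered libraries deviated together by correlations between -0.01 and 0.21, not over 0.1 in every pair, so the numbers were not taken as pairs. Libraries correlated best with their own number in 6 of 6 cases for P2 and CD31+ cells. This held in 5 of 6 for CD31+ and CD324+ cells and in 4 of 6 for P2 and CD324+ cells. For E18.5 cells it held in 4 of 6 with CD324+ and 3 of 6 with CD31+ cells. The labels do not say whether equal numbers share a litter. The replicate block changed no call of a member, with 8 lower, 8 higher and 6 higher where the fit without it had as many, and 10910 against 10815 genes called for P2 against CD324+ cells.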
